A study of Mus musculus with 44 samples.

Results

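The potassium channel genes were followed as the autosomal mouse protein-coding genes whose symbols start with Kcn, which are 92 of 20661 autosomal protein-coding genes in the annotation. A region belonged to a channel gene when it overlapped the gene body or the 20 kb on either side, and it went to the nearest member. Of 135496 common regions of 500 bp, 1156 were channel regions. Of these, 156 lay within 1 kb of an end of their own channel gene and 1000 farther away, called distal here. Gene-end regions were found for 68 of the genes and regions of any kind for 91, and Kcnj16 had none. Another gene's end lay within 1 kb of 98 of the channel regions, 12 of them gene-end regions. Another gene's body overlapped 161, so an assignment by nearness does not say which gene a region serves.

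Potassium channels let potassium leave or enter the neuron and so set its resting potential, its firing threshold and how fast each action potential ends. The voltage-gated Kv families open on depolarization, inward rectifiers and tandem-pore leak channels hold the resting potential, calcium-activated and sodium-activated channels respond to ions that enter during firing, and auxiliary subunits change the trafficking and gating of the pore-forming ones. Transcription factors induced by activity bind accessible DNA at promoters and enhancers, and the BAF chromatin remodelling complex uses ATP to move nucleosomes and keep such sites open.

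The series is ATAC-seq, in which a transposase cuts accessible DNA, on primary cortical neurons from mouse embryos at day 16.5. All 22 groups had 2 libraries each. In every experiment the cultures, also those given KCl, had been silenced overnight with 1 µM TTX, a sodium channel blocker, and 100 µM D-AP5, an NMDA receptor blocker. Stimulated cultures were depolarized with 50 mM KCl. The first experiment used wild-type neurons after 7 days in vitro (DIV7), given FHT1015 at 100 nM, which blocks the ATPase of BAF, or its vehicle, 0.1% DMSO, for 10 or 30 min, each with and without KCl for the same time. The second used DIV7 neurons that received an Arid2 knockout guide RNA or a non-targeting one, where Arid2 is a subunit of the PBAF form of the complex, unstimulated or with KCl for 30 min. The third used DIV18 neurons with a non-targeting guide or with a Smarcc2 knockout, Smarcc2 being a BAF core subunit, with KCl for 30 min or none. The knockout neurons carried an empty vector or an add-back of wild-type Smarcc2, of Smarcc2 S586A or of Smarcc2 S586E. The labels count each embryo's cortex as a biological replicate without tying a library to an embryo, so p-values measure the spread between these libraries. In bulk cultures, fewer cells with a site open and a less open site in each cell cannot be told apart.

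The files gave a peak list for each library, and accessibility was read as a rank. The rank score takes the shortest list, of 178672 lines, and is the log2 of that number over the rank of the best peak summit within 250 bp of the region's centre, floored at 0, so that a rise of 1 means a rank position cut to 50%. It is a relative measure: when many other sites rise, a region with the same signal falls. Libraries held 178672 to 389907 list lines, with 340149 to 389907 in unstimulated DMSO neurons at 30 min and 233609 to 265491 with FHT1015 at 30 min. Library pairs within a group correlated across regions at Pearson r of 0.876 to 0.981. The activity gene Fos rose at its own gene end by 3.63 ± 0.27 (SE) after 10 min of KCl in DMSO, by 1.85 ± 0.27 after 30 min, by 2.69 ± 0.25 in non-targeting DIV7 neurons and by 4.93 ± 0.33 in those at DIV18. In the same order the activity gene Npas4 changed by 1.58, 1.93, 5.70 and 8.59 and Egr1 by 3.38, 2.30, 1.76 and 3.08. Junb changed by 1.37, -0.13, 1.20 and 0.99. Its changes at 30 min in DMSO and at DIV18 were not called (limma adjusted p = 0.606 and 0.0885). Gene ends of neuronal markers had library medians of 3.65 to 4.76, and 4 of 7 microglia markers were at 0 in all 44 libraries. Vascular and meningeal marker gene ends reached library medians of 0.41 to 1.34 in the inhibitor experiment and at most 0.192 in the others, and those of progenitor markers 3.58 to 4.06 against 0.439 to 2.60. The part of other cell types in the channel results was not tested. Neither the Arid2 nor the Smarcc2 gene end differed with its knockout (0.04 ± 0.18 and 0.00 ± 0.17), and accessibility there does not check an edit of the coding sequence.

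A region was called when limma's moderated test, fitted on all regions of an experiment, gave a Benjamini-Hochberg adjusted p under 0.05. Because summits move within a site, counts below are of regions called with the same sign under all 3 ways of matching a list to a region (summit within 250 bp, summit within 500 bp, and overlap with the interval), a rule chosen after seeing the data. Each count stands beside the share of all gene-end or distal regions of any gene called the same way. Regions named for a large change were picked among those whose libraries did not overlap between the groups compared, so that separation adds no support.

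To show what the starts of responding channel genes look like, the 250 bases just before 4 RefSeq gene starts (GRCm38.p6, the build called mm10) are printed 5′ to 3′ on the gene's strand. In the first 3, capitals mark CG dinucleotides, of which Kcnc2 (chr10:112269767-112270016, + strand) has 2, Kcnh4 (chr11:100759779-100760028, - strand) has 20 and Kcnj2 (chr11:111065914-111066163, + strand) has 14. In Kcnip3 (chr2:127522095-127522344, - strand) capitals mark a match to the AP-1 motif TGANTCA.
Kcnc2: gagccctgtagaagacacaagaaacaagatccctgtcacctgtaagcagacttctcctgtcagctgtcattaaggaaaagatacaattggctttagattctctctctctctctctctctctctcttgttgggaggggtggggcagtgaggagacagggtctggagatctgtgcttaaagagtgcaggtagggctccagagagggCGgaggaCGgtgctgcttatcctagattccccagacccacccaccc
Kcnh4: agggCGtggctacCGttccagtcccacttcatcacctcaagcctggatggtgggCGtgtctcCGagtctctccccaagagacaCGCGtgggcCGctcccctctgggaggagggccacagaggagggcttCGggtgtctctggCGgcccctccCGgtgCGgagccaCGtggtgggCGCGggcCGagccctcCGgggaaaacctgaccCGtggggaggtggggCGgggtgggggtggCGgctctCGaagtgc
Kcnj2: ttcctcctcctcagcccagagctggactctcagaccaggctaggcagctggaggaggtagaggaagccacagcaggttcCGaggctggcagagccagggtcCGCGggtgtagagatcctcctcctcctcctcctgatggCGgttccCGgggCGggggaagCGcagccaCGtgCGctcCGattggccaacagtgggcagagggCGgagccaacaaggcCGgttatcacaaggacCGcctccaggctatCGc
Kcnip3: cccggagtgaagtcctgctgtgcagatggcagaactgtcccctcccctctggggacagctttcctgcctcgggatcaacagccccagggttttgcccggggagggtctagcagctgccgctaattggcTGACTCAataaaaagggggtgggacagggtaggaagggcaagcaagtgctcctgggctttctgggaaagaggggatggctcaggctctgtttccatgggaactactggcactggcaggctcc

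The RefSeq promoter table matched 68 of the channel genes with 93 gene starts, and 56 of these windows overlapped a region held in the lists. Over the full windows of that table, TGANTCA on either strand was present in 4 of the 93 (4.30%), those of Kcnk2, Kcnip3, Kcnip4 and Kcne3, against 7.85% of all 31396 windows. The CRE motif TGACGTCA was in 0 of them, against 1.83% of all, and the Egr motif GCGTGGGCG in 0, against 0.605%. Channel windows had a median of 9 CG dinucleotides and all windows a median of 7.

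Gene-end accessibility covered a wide range between channel genes. The strongest gene-end region of Kcnab2, an auxiliary subunit of Kv1 channels, ranked highest of the 28 genes in the map of levels, and that of Kcnip1, a calcium-binding partner of Kv4 channels, was at 0 in many libraries. Kcnj2, a strong inward rectifier, and Kcnn3, a small-conductance calcium-activated channel, were also bright in the map of levels by library. In all 44 libraries 45 channel gene-end regions were held among the strongest 75000 lines (28.8%, against 40.1% of all gene-end regions). Of distal channel regions 87 were (8.70%, against 6.11%), but only the distal background leaves out the ends of all genes. Kcnma1, the large-conductance calcium-activated channel, had the most regions (64), followed by Kcnd3 (38) and Kcnip1 (32).

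**Figure D1:**
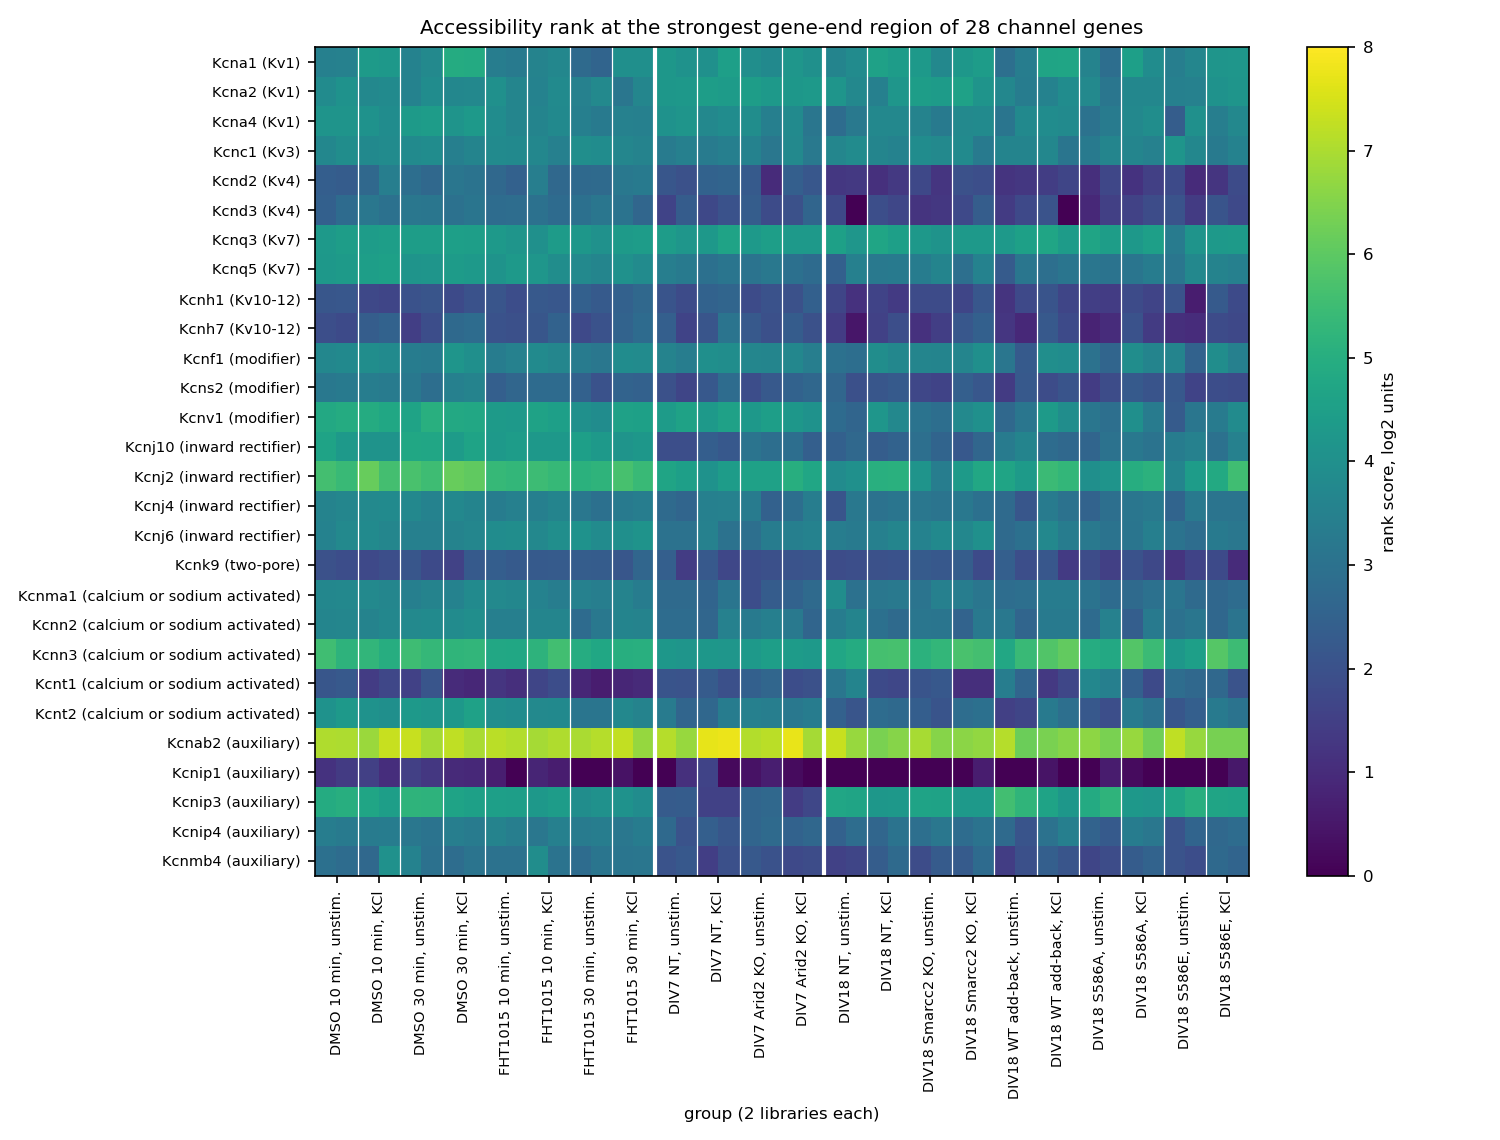
Rank score (colour, log2 units) at the strongest gene-end region of 28 followed channel genes (rows) in all 44 libraries (columns, 2 per group, thick lines between experiments). Kcnab2 is the brightest row throughout, Kcnip1 the darkest, and Kcnip3 and Kcnj10 are dark in the DIV7 guide RNA experiment and brighter in the inhibitor experiment.

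KCl raised the accessibility rank at more channel gene ends than it lowered within 10 to 30 min in DMSO-treated DIV7 neurons, while distal channel regions fell about as often as distal regions of all genes. After 10 min, 11 of 129 channel gene-end regions tested were higher (8.53%, background 2.92%) and 1 was lower (0.775%, background 1.03%). After 30 min, 23 were higher (17.8%, background 10.2%) and 9 lower (6.98%, background 5.68%). The shares called higher at channel gene ends were thus above those of all genes at both times. The median change at 30 min was 0.10 at channel gene ends and 0.08 over all gene ends, so the medians were close. Of 452 distal channel regions, 30 were higher at 30 min (6.64%, background 6.52%) and 58 lower (12.8%, background 11.4%), with a median change of -0.23 against -0.24 for all distal regions. Leaving out any one of the 4 libraries kept 8 to 13 of the 23 channel calls at 10 min, of which 6 were kept in every such fit, and 94 to 100 of the 120 at 30 min. After 10 min, 7 distal channel regions were higher (1.55%, background 1.22%) and 4 lower (0.885%, background 1.41%). Summit matching within 250 bp alone gave 52 higher (background 7.59% of all regions) and 73 lower (12.7%) of 581 channel regions at 10 min. Interval matching gave 43 and 7 (background 4.47% and 1.61%). At 30 min the summits gave 93 higher (background 14.1%) and 158 lower (25.1%), and the intervals 90 and 80 (background 13.7% and 11.3%). The balance of directions thus moved with the unit over all regions too.

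**Figure D2:**
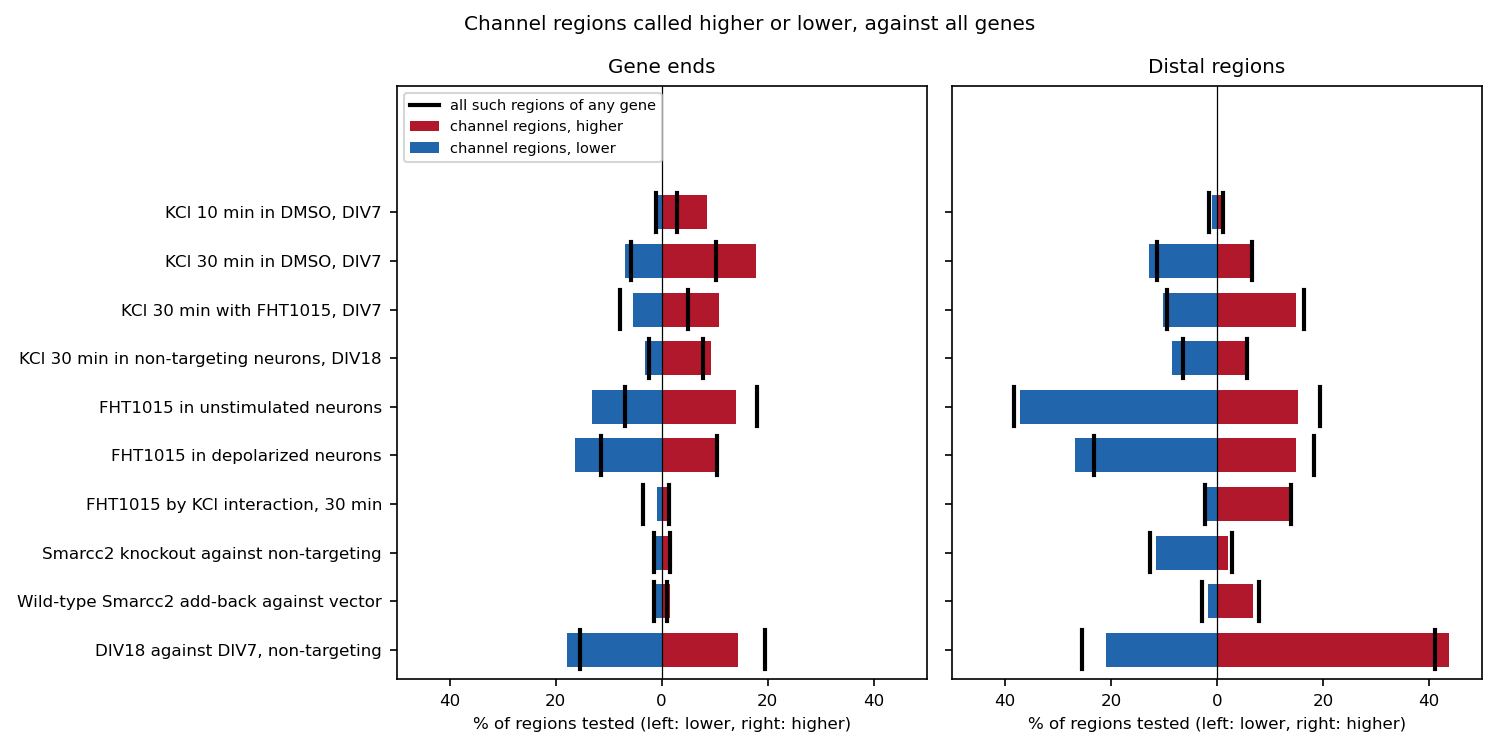
Share of channel regions called higher (red, right) or lower (blue, left) under all 3 ways of matching, in % of regions tested, at gene ends and distal sites for 10 comparisons. Black bars give the same share for all genes: red bars pass them at gene ends for KCl in DMSO at 10 and 30 min, while most distal bars end near them.

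Among the Kv1 genes, whose channels sit on axons and hold back firing, 2 of 15 gene-end regions rose after 30 min, both at Kcna1, and none fell (background 10.2% higher, 5.68% lower). The larger change was in the region over its higher-coordinate end (chr6:126645553-126646052), which scored 3.56 and 3.78 in unstimulated DMSO libraries at 30 min and 4.92 and 4.90 with KCl. The rise was 1.24 ± 0.12 (SE, limma adjusted p = 1.22e-05). At 10 min the libraries were at 3.48 and 3.51 without and 4.36 and 4.25 with KCl, a rise of 0.81 ± 0.12 (limma adjusted p = 0.00127). With FHT1015 the rise was of like size, from 2.75 and 2.57 to 3.98 and 3.98, although both levels were lower than in DMSO. These calls were kept whichever single library was left out.

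The Kv10 to Kv12 genes (Kcnh, the ether-a-go-go family) had 15 gene-end regions tested, of which 8 rose after 30 min and none fell, against a background of 10.2% higher. These 8 belong to 5 genes, so they are not 8 independent sites: Kcnh3, Kcnh7 and Kcnh8 with 2 regions each and Kcnh4 and Kcnh5 with 1 each. The largest change was at Kcnh8 (chr17:52601427-52601926, 783 bp from its start), which went from 0.08 and 0.20 to 1.35 and 1.33, by 1.20 ± 0.15 (limma adjusted p = 6.91e-05). The second Kcnh7 region (chr2:63183964) rose by 1.07 ± 0.17, and the Kcnh5 start (chr12:75176560-75177059) by 0.48 ± 0.10, from 4.83 and 4.81 to 5.29 and 5.31. After 10 min, 4 of the 15 were higher, at Kcnh5, Kcnh7 and Kcnh8 (background 2.92%). When each library was left out in turn, 4 of the 8 calls at 30 min were kept throughout (1 region each of Kcnh3, Kcnh5, Kcnh7 and Kcnh8), while Kcnh4 (smallest rise 0.36, highest limma adjusted p = 0.2297) was lost without unstimulated replicate 1 and without KCl replicate 2. None of the 4 calls at 10 min was kept in every such fit. Of 38 distal Kcnh regions, 10 were lower and 5 higher, where 11.4% of all distal regions were lower and 6.52% higher.

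The Kv3 genes, which let neurons fire fast, were split. Kcnc2, in a region that begins just past the sequence shown above, rose from 2.41 and 2.65 to 3.41 and 3.37 (0.86 ± 0.15, limma adjusted p = 0.000811), and Kcnc4 rose by 0.88 ± 0.18. The Kcnc1 start (chr7:46396205-46396704) fell by 0.79 ± 0.11, after 4.35 and 4.42 had become 3.80 and 3.86 by 10 min, a fall of 0.55 ± 0.11. All 3 gene-end regions of Kcnc1 tested were lower. The calls at Kcnc2, Kcnc4 and the Kcnc1 start were kept without any single library.

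Modifier subunits make no channel alone and join Kv2 subunits. Of their 11 gene-end regions, 4 rose after 30 min (Kcng1, Kcns3, Kcnf1 and Kcns2) and none fell, against a background of 10.2% higher and 5.68% lower. Kcnf1 rose by 0.76 ± 0.12 (limma adjusted p = 0.000319), a call kept without any single library. The other 3 calls were each lost without at least 1 library: Kcns3 without unstimulated replicate 2 (0.46), and Kcng1 and Kcns2 when either KCl library or 1 of the unstimulated ones was left out (smallest rises 0.68 and 0.33). A site 7958 bp from Kcns2 (chr15:34828898-34829397) went from 0.56 and 0.39 to 2.26 and 2.06, the largest distal rise at 30 min among the regions named here (1.69 ± 0.18, limma adjusted p = 3.21e-05). At 10 min it had gone from 0.74 and 0.89 to 2.07 and 1.58. Other distal sites that rose were inside Kcne3, a single-pass auxiliary subunit (chr7:100178431-100178930, 0.85 and 0.93 to 2.45 and 2.12), and inside Kcnk12, a silent tandem-pore subunit (chr17:87795333-87795832, 0.00 and 0.29 to 1.58 and 1.44).

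The largest distal falls after 30 min were near Kcnt1, the sodium-activated channel, and inside Kcnip3. The Kcnt1 site (chr2:25852642-25853141) went from 2.26 and 1.95 to 0.11 and 0.60, by -1.75 ± 0.23 (limma adjusted p = 0.000101). Kcnip3 encodes a calcium-binding protein that partners Kv4 channels and also acts as a transcriptional repressor. Its intronic site (chr2:127504130-127504629) fell from 3.69 and 3.35 to 1.95 and 2.14. A site 6115 bp from Kcnh3 and inside Mcrs1 (chr15:99248933-99249432) fell from 1.10 and 1.27 to 0.00 in both libraries. These 3 calls, and those of the distal sites of Kcns2, Kcne3 and Kcnk12, were kept whichever single library was left out. Of all channel regions called after 30 min, 81 of 120 were kept in this way.

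In DIV18 neurons with the non-targeting guide, KCl for 30 min changed 46 channel regions upward and 59 downward. At gene ends 12 of 128 were higher (9.38%, background 7.85%) and 4 lower (3.12%, background 2.32%). Of 653 distal channel regions, 34 were higher (5.21%, background 5.75%) and 55 lower (8.42%, background 6.36%). Summit matching alone gave 80 higher (background 9.74% of all regions) and 137 lower (13.3%) of 781 channel regions. Interval matching gave 86 and 68 (background 11.3% and 5.82%), so the balance of directions depends on the unit, also over all regions. Of the 105 regions, 60 were kept without unstimulated replicate 1, 64 and 65 without either KCl library and 86 without unstimulated replicate 2. In DIV7 neurons with the same guide, 1 of 428 distal channel regions was higher (0.234%, background 0.371%) and 0 of 110 gene ends (background 0.203%). None was lower (background 0.0124% of distal regions and 0.00496% of gene ends). There limma's unadjusted p was under 0.05 for 67 of 538 regions and summit matching alone called 5 (background 0.779%). A test on simulated data with 200 changed regions recovered 23% of changes of 1 unit and 82% of changes of 2 units there. For DIV18 it recovered 14% and 81%. In the DIV18 data 23% of all regions were called by summit, far more than the simulation changed, so its recovery does not carry over. Changes near 1 unit were called in those data, among them the Kcnh5 start (1.11, limma adjusted p = 0.00356). For non-targeting DIV7 neurons, changes of 1 unit were mostly not detectable in the simulation.

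The distal region called higher in these DIV7 neurons lay inside Kcnd2, the Kv4 gene of dendritic A-type current (chr6:21418199-21418698). It went from 1.00 and 1.00 to 2.92 and 3.34, by 2.13 ± 0.33 (limma adjusted p = 0.00474). Without the second KCl library the rise was 1.92 and the call was lost (limma adjusted p = 0.10), and it was also lost with the number of list lines as a covariate (2.51, limma adjusted p = 0.246). At DIV18 it rose by 0.94 (limma adjusted p = 0.0365), and in DMSO neurons at 30 min it stood at 0.00 and 0.00 without and 1.25 and 1.06 with KCl, too weak to enter that fit.

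Other channel genes at DIV18 moved by about 2 units or more in both directions. A site inside Kcnab1, a Kv1 auxiliary subunit (chr3:65321920-65322419), went from 0.24 and 1.57 to 3.21 and 3.54 (2.47 ± 0.36, limma adjusted p = 8.93e-05). One 15842 bp past Kcnf1 (chr12:17155759-17156258) went from 0.83 and 0.86 to 3.06 and 3.06, and one inside Kcnma1 (chr14:23783196-23783695) from 0.65 and 0.86 to 2.76 and 2.51. The stimulated libraries lay above the unstimulated ones at each of the 3, which the rule for naming regions required. Upstream of Kcnn1 (chr8:70880142-70880641) 5.96 and 5.62 became 3.62 and 3.61. The 3′ end of Kcnj9 (chr1:172320057-172320556), which is also an end of Igsf8, fell from 3.36 and 4.00 to 1.44 and 1.95.

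The DMSO neurons at DIV7 and the non-targeting neurons at DIV18 share no library, so their KCl responses can be set side by side. Over 437 channel regions tested in both, the changes correlated at Pearson r = 0.63, and over 50762 regions of all genes at 0.55. These are descriptions across regions, which are not independent replicates. Of 41 channel regions called higher in DMSO and tested in both, 38 had the same sign at DIV18 and 11 were also called higher. Over all regions 91.1% had the same sign, and 1381 of 3906 were also called. Of 51 called lower, 42 had the same sign and 6 were also called lower, and none was called in the opposite direction, where 80.1% of all such regions had the same sign and 660 of 5202 were also called. Against the non-targeting neurons at DIV7, r was 0.26 over 404 channel regions (0.34 over all regions). There 26 of the 41 and 35 of the 51 had the same sign, beside 72.4% and 73.2% over all regions, and at channel gene ends 12 of 22 and 4 of 8.

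**Figure D3:**
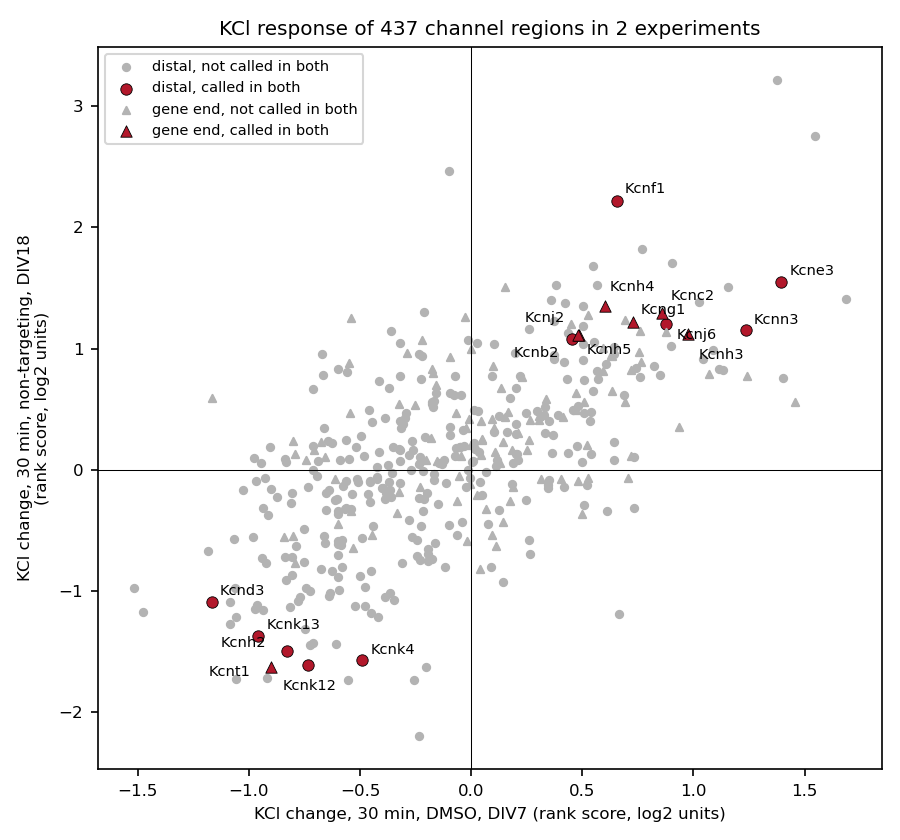
Change with 30 min of KCl (rank score, log2 units) in DMSO neurons at DIV7 (x axis) and non-targeting neurons at DIV18 (y axis) for 437 channel regions (circles distal, triangles gene ends). The 17 regions called in both (red, named) lie in the upper right or lower left, and r over all points is 0.63.

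The 17 regions called in both came from most channel classes. The 11 that rose were gene ends of Kcnc2, Kcnh3, Kcnh4, Kcnh5, Kcng1 and Kcnj2 and distal sites of Kcnb2, Kcnn3, Kcne3, Kcnf1 and Kcnj6. At the Kcnc2 start (chr10:112270045-112270544) the DIV18 libraries went from 1.29 and 1.03 to 2.44 and 2.47 (1.30 ± 0.31, limma adjusted p = 0.00543), beside the 0.86 in DMSO. Its non-targeting DIV7 libraries were at 2.03 and 2.55 without and 2.55 and 2.03 with KCl and overlapped fully. At the Kcnj2 start (chr11:111065878-111066377), 3.87 and 4.02 became 5.04 and 5.08 at DIV18, and 5.69 and 5.50 became 6.12 and 6.04 in DMSO, but each call was lost when either KCl library or 1 of the unstimulated ones was left out (smallest rises 1.04 and 0.39). At the Kcnh4 start (chr11:100759796-100760295), 1.56 and 2.06 became 3.32 and 3.01 at DIV18, a call lost without unstimulated or KCl replicate 1 (smallest rise 1.10, highest limma adjusted p = 0.0895). The Kcne3 site rose by 1.40 in DMSO and 1.55 at DIV18, with 1.05 in non-targeting DIV7 neurons (limma adjusted p = 0.29). Its call at DIV18 was lost without unstimulated replicate 1 (0.90, limma adjusted p = 0.0955).

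The 6 that fell in both were a gene end of Kcnt1 and distal sites of Kcnd3, Kcnh2, Kcnk13, Kcnk12 and Kcnk4, the last at the ends of Bad and Gpr137. At the Kcnt1 gene end (chr2:25918370-25918869), 3.14 and 3.60 became 1.79 and 1.69 at DIV18 (-1.63 ± 0.32, limma adjusted p = 0.00133), and 1.56 and 2.12 became 1.00 and 0.88 in DMSO (-0.90 ± 0.19, and -0.14 with the first 50000 lines only, limma adjusted p = 0.168). Unstimulated libraries lay above stimulated ones in both experiments. The site past Kcnk12 (chr17:87726391-87726890) fell from 3.18 and 3.38 to 1.44 and 1.90 at DIV18 and from 1.71 and 1.68 to 0.98 and 0.95 in DMSO. The Kcnt1 gene end, the Kcnc2 start and this Kcnk12 site were called in both experiments whichever single library was left out, and the other 14 were not.

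FHT1015 lowered the rank of distal channel regions far more often than that of gene ends. In unstimulated neurons, with 10 and 30 min averaged, 168 of 452 distal regions were lower (37.2%, background 38.2%) and 69 higher (15.3%, background 19.4%). At gene ends 17 of 129 were lower (13.2%, background 6.87%) and 18 higher (14%, background 18%). The distal channel shares thus lay near those of all distal regions, while channel gene ends were called lower more often than all gene ends. With the number of list lines as a covariate, which differed between the drug and DMSO libraries, 237 channel regions were called by summit in place of 381 of 581 (background 67.6%), with 51 higher and 186 lower, beside 39.7% of all regions (10.8% higher, 28.9% lower) in that fit.

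Among the 26 distal regions of Kv4 genes tested, 14 were lower and 1 was higher (background 38.2% and 19.4%). Kcnd3 held all 14 of these falls among its 22 regions, with none higher. The median change was -0.83 over 26 distal Kv4 regions, against -0.28 over all distal regions. Regions of 1 gene share a locus and were not counted as replicates. Among the 66 distal regions of inward rectifiers, 14 were lower and 14 higher, against backgrounds of 38.2% and 19.4%.

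The largest single fall was 2498 bp past Kcnj5, a G protein-gated inward rectifier (chr9:32311709-32312208). It scored 2.74, 2.64, 2.36 and 2.87 in the unstimulated DMSO libraries and 0.76, 0.64, 0.14 and 0.00 with FHT1015, a fall of 2.27 ± 0.13 (limma adjusted p = 8.77e-09). One 12167 bp past Kcnf1 (chr12:17159434-17159933) scored between 3.08 and 3.44 in DMSO, 1.48 and 1.79 after 10 min and 0.71 and 0.55 after 30 min. In both all drug libraries lay below all DMSO libraries, which the rule for naming regions required. The 30 min drug libraries lay below the 10 min ones, which it did not require.

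At gene starts the Kcna5 region (chr6:126535160-126535659) fell from 2.72, 2.58, 2.31 and 1.89 to 1.42, 1.43, 0.44 and 0.00 (-1.55 ± 0.16, limma adjusted p = 7.89e-07). The Kcnt1 gene end, which KCl also lowered, fell from 2.12, 2.24, 1.56 and 2.12 to 1.24, 1.07, 0.85 and 0.63 (-1.07 ± 0.13). The Kcnip1 start was between 1.18 and 1.51 in DMSO and at most 0.66 with the drug, a change of -1.18 ± 0.16, and -0.72 with the number of lines as a covariate (limma adjusted p = 0.0522). Fewer gene ends rose by as much: the Kcnn1 start (chr8:70865484-70865983) went from 5.10, 5.02, 4.97 and 4.86 to 5.78, 5.59, 5.62 and 5.48 (0.63 ± 0.10, limma adjusted p = 5.08e-05), and the Kcng3 region from 0.64, 0.67, 0.89 and 0.50 to 1.50, 1.34, 1.35 and 1.28.

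The distal regions named here for their large rises with FHT1015 had low ranks in DMSO. The DMSO ranks of the other risen distal regions were not summarised. A site 16571 bp past Kcne2 (chr16:92314704-92315203) was at 0.00 in all 4 DMSO libraries and at 0.80, 0.94, 1.77 and 1.65 with the drug. One 13224 bp from Kcnj4 and inside Kdelr3 (chr15:79525735-79526234) went from 0.04, 0.00, 0.36 and 0.39 to 1.24, 1.07, 1.99 and 1.96 (1.36 ± 0.11, limma adjusted p = 8.8e-08).

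**Figure D4:**
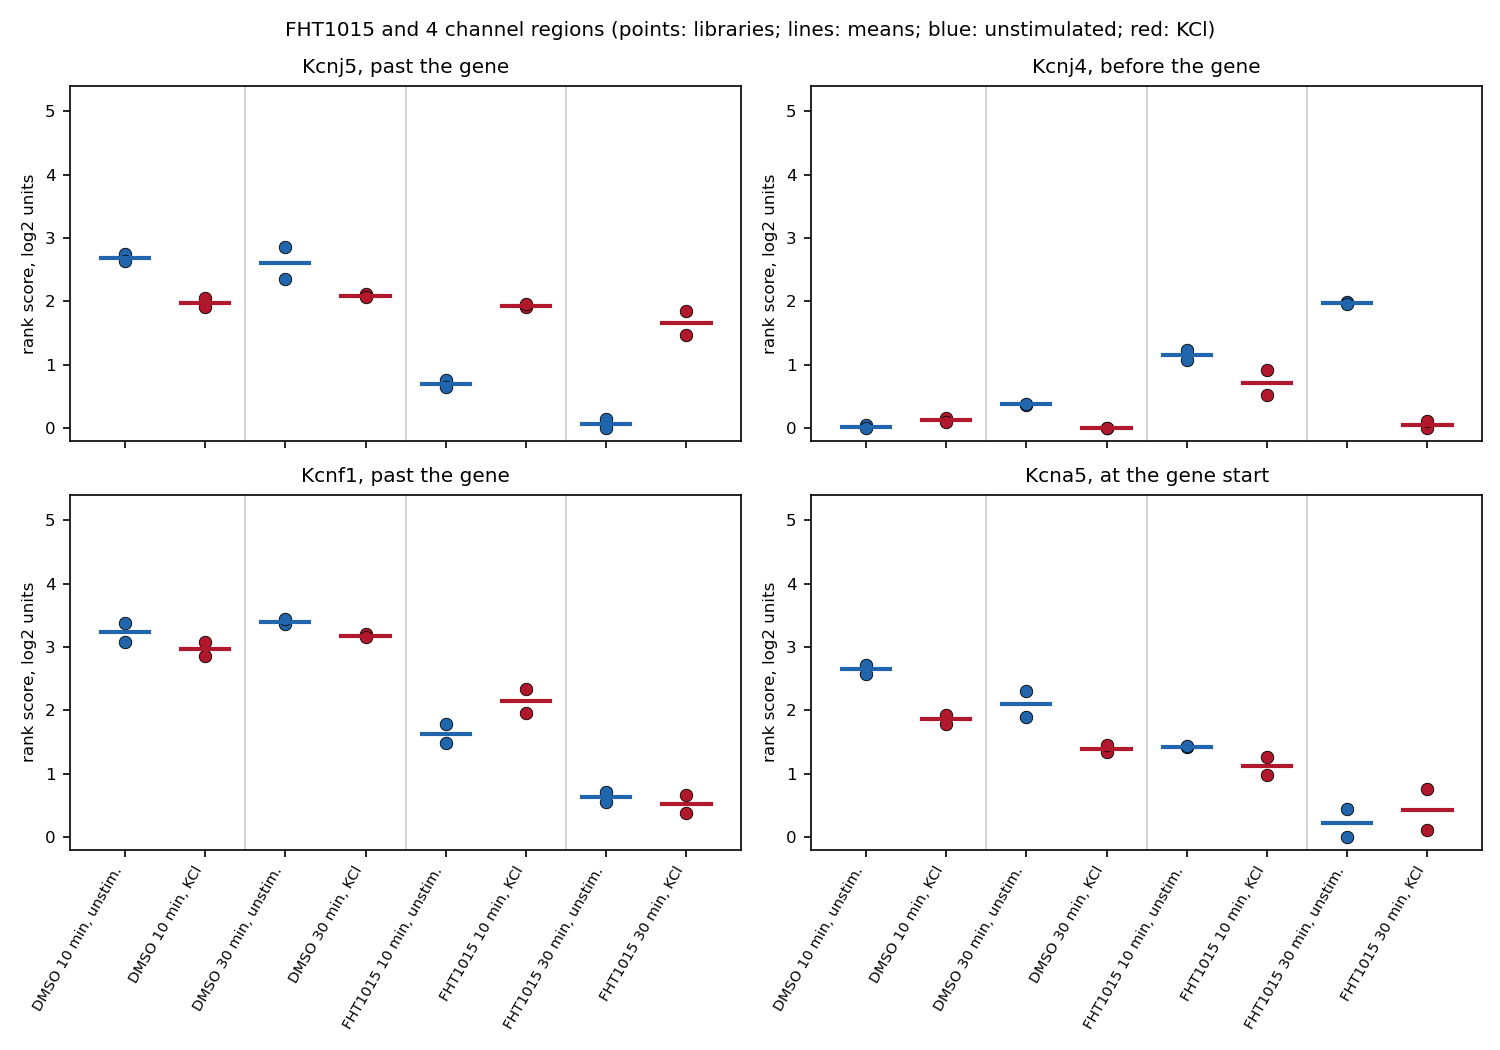
Rank score (log2 units) in each library (points) with group means (lines), unstimulated in blue and KCl in red, for the Kcnj5, Kcnj4 and Kcnf1 distal regions and the Kcna5 start. Unstimulated FHT1015 libraries lie below the unstimulated DMSO libraries at Kcnj5, Kcnf1 and Kcna5, lowest after 30 min, and above them at Kcnj4, and at Kcnj5 the KCl libraries under the drug lie above the unstimulated ones.

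In depolarized neurons 121 distal channel regions were lower with FHT1015 (26.8%, background 23.2%) and 67 higher (14.8%, background 18.4%). At gene ends 21 were lower (16.3%, background 11.4%) and 13 higher (10.1%, background 10.4%). With the number of lines as a covariate 177 were called by summit in place of 305 (background 50%, or 26.1% in that fit), 43 higher and 134 lower. The Kcnc2 start, which KCl raised in DMSO, was at 2.88, 2.75, 3.41 and 3.37 in depolarized DMSO libraries and at 2.21, 2.39, 2.13 and 2.14 with the drug (-0.89 ± 0.11, limma adjusted p = 2.53e-05). The start of Kcnj9, another G protein-gated rectifier (chr1:172329091-172329590), was at 3.54, 3.35, 3.56 and 3.66 in DMSO, 3.10 and 3.15 after 10 min and 2.09 and 2.11 after 30 min. Kcnd3 had 11 of 22 distal regions lower and none higher (background 23.2% and 18.4%). The start of Kcnh1 rose from 1.72, 1.69, 1.79 and 2.03 to 2.23, 2.17, 2.50 and 2.70 (0.60 ± 0.10).

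KCl for 30 min under FHT1015 raised 67 distal channel regions (14.8%, background 16.5%) and lowered 46 (10.2%, background 9.5%). It raised 14 gene-end regions (10.9%, background 5.06%) and lowered 7 (5.43%, background 7.91%). Of these 134 calls, 86 were kept without unstimulated FHT1015 replicate 2 and 88 without replicate 1. The difference between the KCl effect with the drug and in DMSO was tested as an interaction, where 64 distal channel regions were higher with the drug (14.2%, background 14%) and 12 lower (2.65%, background 2.22%), and 2 gene ends were higher (1.55%, background 1.34%) and 1 lower (0.775%, background 3.44%). With only the first 50000 lines of each list 64 channel regions of either kind were called, 31 higher and 33 lower. In that fit 9.73% of all regions were higher and 7.53% lower.

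At the largest interactions KCl lowered a site in DMSO and raised it under FHT1015. Inside Kcnmb2, a subunit of the large-conductance calcium-activated channel (chr3:32060163-32060662), 1.91 and 2.01 became 1.31 and 1.25 in DMSO, and 0.00 and 0.00 became 1.66 and 1.57 with the drug. The interaction was 2.29 ± 0.24 (limma adjusted p = 3.97e-05). Inside Kcnq3 (chr15:66271045-66271544) the DMSO values were 2.33 and 2.32 without and 1.34 and 1.14 with KCl, and the drug values 0.00 and 0.08 without and 1.30 and 0.99 with KCl (2.19 ± 0.24). Among depolarized libraries the Kcnmb2 values were higher with the drug and the Kcnq3 values overlapped, while both sites were at or near 0 in unstimulated drug libraries. Kcnmb2 was not called with the first 50000 lines only (0.12, limma adjusted p = 0.0747). At a Kcnh3 gene-end region (chr15:99224293-99224792) the order was the reverse: 2.81 and 2.52 rose to 3.37 and 3.23 in DMSO and 3.23 and 3.13 fell to 2.69 and 2.69 with the drug (-1.13 ± 0.21, limma adjusted p = 0.00186).

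Smarcc2 knockout in DIV18 neurons, with unstimulated and depolarized libraries averaged, lowered 75 of 653 distal channel regions (11.5%, background 12.6%) and raised 14 (2.14%, background 2.83%). Few gene ends were called, with 2 of 128 higher (1.56%, background 1.67%) and 2 lower (1.56%, background 1.36%). Adding back wild-type Smarcc2 raised 45 distal regions over the knockout with empty vector (6.89%, background 7.97%) and lowered 11 (1.68%, background 2.73%), and at gene ends 2 rose (1.56%, background 1.03%) and 2 fell (1.56%, background 1.47%). Both comparisons use the same knockout libraries, so opposite changes in them are not independent. The channel shares lay near those of all genes throughout. Interval matching gave 46 higher and 83 lower channel regions for the knockout (background 5.63% and 11.1%), against 39 and 117 by summit (background 4.3% and 15.1%). The number of lines as a covariate gave 47 and 80 (background 6.26% and 10.7%). For the add-back interval matching gave 56 and 38 (background 7.81% and 4.51%), against 82 and 33 by summit (background 11.5% and 3.86%). The first 50000 lines of each list gave 19 and 20 (background 3.59% and 2.82%). Of the 60 add-back calls, 37 were kept without add-back KCl replicate 1 and 39 without knockout unstimulated replicate 2.

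Among lowered sites, one 15366 bp before Kcnip3 and inside Prom2 (chr2:127537460-127537959) was at 4.26 and 4.68 in unstimulated non-targeting libraries and 2.35 and 2.47 with KCl. In the knockout it was at 2.07 and 2.30, and 0.69 and 1.13 with KCl, and with wild-type Smarcc2 at 4.77 and 4.80, and 3.35 and 2.85. The knockout change was -1.89 ± 0.19 (limma adjusted p = 2.43e-06) and the add-back change 2.39 ± 0.19 (limma adjusted p = 2.91e-08). Depolarized libraries lay below unstimulated ones in each of the 3.

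Inside Kcng2, a modifier gene on chromosome 18, the knockout libraries were at 1.69 and 2.03 without and 0.76 and 0.00 with KCl, below the non-targeting 3.81, 4.34, 2.70 and 2.59 (-2.24 ± 0.23, limma adjusted p = 5.26e-06). Inside Kcnj12, a strong inward rectifier (chr11:61040804-61041303), they were at 0.69, 0.52, 0.37 and 0.84, against 2.80, 3.16, 1.62 and 2.15 (-1.83 ± 0.26). Add-back changes were 2.09 at Kcng2 and 1.80 at Kcnj12. A site 3822 bp before Kcns1, at the end of Wfdc5 (chr2:164174935-164175434), changed by -1.78 in the knockout and 1.88 with the add-back. The knockout calls at Kcnip3, Kcng2 and Kcnj12 were kept without any single library, while Kcnj12 was not called with the first 50000 lines only (-0.65, limma adjusted p = 0.0954).

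The knockout also raised a few sites. The start of Kcna6, a Kv1 gene (chr6:126740428-126740927), was at 0.65, 1.14, 1.85 and 1.46 in non-targeting libraries and 2.22, 2.17, 2.10 and 2.49 in the knockout (0.97 ± 0.23, limma adjusted p = 0.00537). A site upstream of Kcnk18 (chr19:59208437-59208936) went from 0.00, 0.48, 0.23 and 0.06 to 1.08, 1.17, 1.54 and 1.34 (1.09 ± 0.26).

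**Figure D5:**
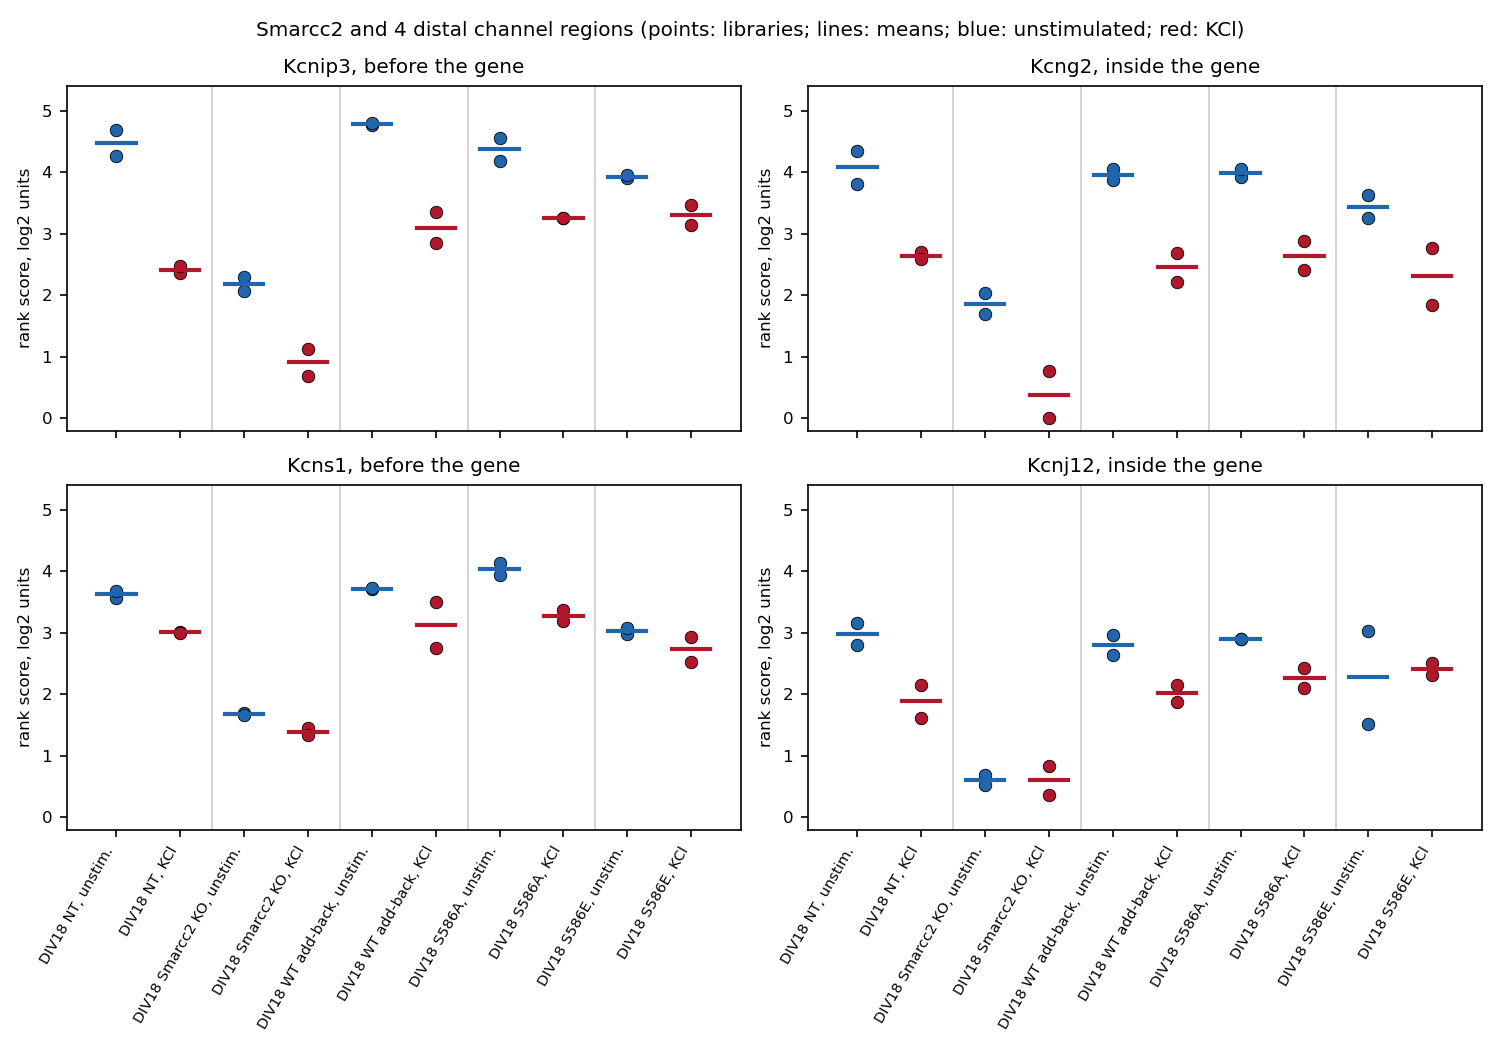
Rank score (log2 units) in each DIV18 library (points) with group means (lines), unstimulated in blue and KCl in red, for distal regions of Kcnip3, Kcng2, Kcns1 and Kcnj12. The Smarcc2 knockout libraries are the lowest in all 4 panels for their stimulation state, and the add-back libraries of the same state lie above them.

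The S586A and S586E add-backs were compared with the wild-type add-back at the same day. No channel region was called for either by limma (background 0.0289% of distal regions higher for S586A and 0.00207% for S586E, 0.00436% of gene ends higher for each, and 0 lower). At an unadjusted p under 0.05 there were 40 of 781 for S586A and 51 for S586E, and interval matching called 1 for each. At the 4 distal sites above, S586A differed from wild type by -0.12 ± 0.19 at Kcnip3, 0.11 ± 0.23 at Kcng2, 0.24 ± 0.19 at Kcns1 and 0.18 ± 0.26 at Kcnj12. S586E differed by -0.33 ± 0.19, -0.33 ± 0.23, -0.54 ± 0.19 and -0.06 ± 0.26 in the same order. None of these 8 differences passed the test over all regions, which does not show that the 3 forms act alike. No channel region passed limma's test of a difference in KCl effect between knockout and non-targeting neurons (0 called, background 0 under all 3 ways, 53 of 781 at an unadjusted p under 0.05). With the first 50000 lines 13 were called, where 1.22% of all regions were.

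Arid2 knockout at DIV7 changed no channel region under all 3 ways of matching and 1 by summit alone (background 0.0498%), and 32 of 538 had an unadjusted p under 0.05 by limma. The background under all 3 ways was 0 as well. The median change over channel gene ends was 0.02.

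Between DIV7 and DIV18 non-targeting neurons, distal channel regions rose more often than they fell. Of 599 distal regions, 262 were higher at DIV18 (43.7%, background 41.1%) and 125 lower (20.9%, background 25.4%), with a median change of 0.50 against 0.40 over all distal regions. At gene ends 17 of 118 were higher (14.4%, background 19.5%) and 21 lower (17.8%, background 15.3%). The 2 days come from separate experiments with separate list lengths, so day and experiment cannot be told apart, and with the number of lines as a covariate no channel region was called. Library medians of inhibitory neuron marker gene ends were 2.05 to 2.59 in the DIV7 guide RNA experiment and at most 1.20 in that at DIV18, where 2 of 6 were at 0 throughout, and those of oligodendrocyte lineage markers 0.198 to 0.674 and 0.932 to 1.77. Their part in these changes was not tested. DMSO neurons of the inhibitor experiment give a second set of DIV7 libraries, without a guide.

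Some sites were near 0 in both DIV7 sets. A region 19674 bp past Kcnd3 (chr3:105693676-105694175) was at 0.00 in the 4 non-targeting DIV7 libraries and in all unstimulated DMSO libraries, and at 4.79, 4.44, 3.94 and 3.81 at DIV18 (4.24 ± 0.17, limma adjusted p = 2.4e-06). A site past Kcnj9 inside Igsf8 (chr1:172313896-172314395) was at 0.20, 0.88, 0.73 and 0.00 at DIV7 and 5.92, 5.46, 4.16 and 4.24 at DIV18. At Kcnma1 18 of 35 were higher and 5 lower, beside 41.1% and 25.4% of all distal regions.

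At other sites the DIV7 sets stood apart. The Kcnip3 start (chr2:127521933-127522432), at the AP-1 motif shown above, was at 2.29, 2.31, 1.54 and 1.55 in non-targeting DIV7 libraries and 4.72, 4.68, 4.24 and 4.26 at DIV18. In unstimulated DMSO libraries at DIV7 it was at 4.91, 5.01, 5.21 and 5.17. The Kcnk12 start (chr17:87798547-87799046) was at 0.20, 0.25, 0.00 and 0.00, against 1.92, 2.10, 3.38 and 3.12 at DIV18 and 2.00, 2.08, 2.36 and 1.77 in DMSO. For these 2 starts the DMSO libraries of DIV7 stood near those of DIV18.

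Lower at DIV18 were sites inside Kcnip4, another Kv4 partner (chr5:48509180-48509679), from 3.73, 4.26, 3.86 and 3.91 to 1.07, 1.03, 1.07 and 1.40, and inside Kcnmb2 (chr3:32067308-32067807), by 2.90 ± 0.26 downward. The DMSO libraries of DIV7 lay between, at 2.44 to 2.79 for Kcnip4. The Kcna6 start was at 3.55, 3.00, 3.66 and 3.86 at DIV7, 0.65, 1.14, 1.85 and 1.46 at DIV18, and 3.73 to 3.93 in DMSO, so both DIV7 sets were above DIV18.

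At the strongest gene-end regions of 28 genes, chosen for their known roles in cortical neurons and shown in the map of levels, 8 passed after 30 min of KCl in DMSO (Kcna1, Kcnf1, Kcnh7, Kcnj2 and Kcns2 higher, Kcnc1, Kcnip3 and Kcnt1 lower, background 10.2% and 5.68%) and 13 with FHT1015 in unstimulated neurons (2 higher, Kcnj6 and Kcnk9, and 11 lower, background 18% and 6.87%). For 17 genes that regulate or work with potassium channels, among them Dpp6 and Hcn4, 2 of 30 gene-end regions rose and 2 fell with 30 min of KCl in DMSO (background 10.2% and 5.68%). Of their distal regions, 15 of 131 rose and 16 fell (background 6.52% and 11.4%). With FHT1015 in unstimulated neurons, 20 of their 131 distal regions rose and 50 fell (background 19.4% and 38.2%). The ends of other genes were not left out of these distal regions either.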

How the data were processed

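ATAC-seq peak lists of 44 libraries were used, 1 list per library. Per the submitters' processing notes, reads were handled with Trim Galore, FastQC, Bowtie2, SAMtools, Picard, bedtools and MACS2 on mm10, with no versions or settings given in the sources used here. The deposited −log10 p-value of column 8 was measured against 1 background level per library, so it moves with depth, and only its rank within a file was used. The deposited fold enrichment of column 7 gave the same order. Read depth is not in the lists, so no counting interval was given, and list lengths stand in its place.

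The strongest 75000 lines of each library defined 135496 autosomal regions of 500 bp, and each library's rank score was computed as described in the results. Regions held by at least 2 libraries of an experiment were tested with limma 3.58.1 (R 4.3.3, trend, 1 mean per group, Benjamini-Hochberg over all regions tested), and tables were made with Python 3.11.15, pandas 2.3.3 and numpy 2.4.6. FHT1015 comparisons averaged both times, and Smarcc2, Arid2 and day comparisons averaged unstimulated and KCl libraries. The script was tested on simulated data with 200 changed regions. For KCl at 10 min in DMSO, 22 of 216 calls there were false. For DIV18 against DIV7, 17 of 183 were false. Both shares lay above the adjusted p threshold. In the data 20.3% and 69% of all regions were called in these comparisons, far more than the simulation changed. Its false shares therefore do not carry over, and the share of false calls in the data is not known. For KCl at 30 min in non-targeting neurons, 6 of 111 calls were false at DIV7, also above the threshold, and 4 of 99 at DIV18. Gene positions and promoter sequences came from RefSeq tables of GRCm38.p6.

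Named regions were, in each comparison, the 3 gene-end and 3 distal regions of largest change in each direction with libraries that did not overlap, at most 1 per gene and kind, plus the followed genes. This rule gave 118 regions, of which 60 were called under all 3 ways of matching. The text replaces the others by the next in order that were, and regions called in both KCl experiments were also named, choices made after seeing the data. The members and lists were chosen with earlier results of these data known. Alternatives were the interval as unit, 50000 lines, a 500 bp summit window, fold enrichment, a filter of 50% of libraries, list length as a covariate, a replicate block and each library left out.

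Some channel genes are counted among the members but not reported here by name. Replicate numbers were not used to pair libraries in the fits reported.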

Additional observations from a re-analysis of the deposited data

Results flagged for a closer look

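At 14 of the channel regions named by the rule the effect of 30 min of KCl differed between FHT1015 and DMSO by the interaction term, in log2 units of rank score with FHT1015 minus DMSO, at a limma adjusted p under 0.05. At 8 of them the region was called with the same sign under all 3 ways of matching. The KCl effect was higher with the drug at sites inside Kcnmb2 (2.29), Kcnq3 (2.19) and Kcnab1 (2.19, chr3:65262511) and at a Kcnip3 gene end (0.72). It was lower at a Kcnh3 gene end (-1.13) and at distal sites of Kcna7 (-1.28), Kcnj4 (-1.23) and Kcnh6 (-0.98). When each of the 8 libraries was left out in turn, the Kcnip3 call was lost 5 times and the Kcnh6 call 3 times.

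The calls at the other 6 were not kept under all 3 ways of matching. These were gene ends of Kcnk12 (1.21), Kcnc1 (1.18), Kcnh3 (1.16, chr15:99225408) and Kcna3 (-2.81) and distal sites of Kcnab3 (-1.89) and Kcnab1 (-1.68, chr3:65391866). The values of those that changed sign stand with the processing results.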

How the results depend on the processing

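Channel regions called by summit matching within 250 bp numbered 125 for KCl at 10 min, 251 at 30 min, 189 with FHT1015, 381 and 305 for FHT1015 without and with KCl, 146 for their interaction, 5 for KCl in non-targeting DIV7 neurons, 1 for Arid2, 217 for KCl at DIV18, 156 for Smarcc2 knockout, 115 for its add-back, 0 for S586A, S586E and knockout by KCl, and 494 for day. The counts below moved by over 1.5 times.

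Under all 3 ways of matching they became 23 for KCl at 10 min, 120 at 30 min, 79 for the interaction, 1 for KCl in non-targeting DIV7 neurons, 0 for Arid2, 105 for KCl at DIV18, 93 for Smarcc2 knockout and 60 for its add-back. With the interval as unit they became 50 for KCl at 10 min, 2 for KCl in non-targeting DIV7 neurons, 0 for Arid2, and 1 each for S586A, S586E and knockout by KCl. With the first 50000 lines, which drops weaker sites by construction, they became 124 for KCl at 30 min, 76 with FHT1015, 189 and 146 for FHT1015 without and with KCl, 64 for the interaction, 0 for KCl in non-targeting DIV7 neurons, 0 for Arid2, 111 for KCl at DIV18, 61 for Smarcc2 knockout, 39 for its add-back, 2 each for S586A and S586E, 13 for knockout by KCl and 252 for day. Testing only regions held by 50% of libraries gave 235 for FHT1015 without KCl, 83 for the interaction, 140 for KCl at DIV18 and 317 for day, and 91 higher and 46 lower for KCl with FHT1015 in place of 105 and 84. The number of lines as covariate gave 237 and 177 for FHT1015 without and with KCl, 2 for KCl in non-targeting DIV7 neurons and 0 for day, where it is nearly the same as the groups. A 500 bp summit window gave 2 for KCl in non-targeting DIV7 neurons. Ranking by fold enrichment changed no call. Shares of all regions moved too: the interval as unit gave 6.08% for KCl at 10 min in place of 20.3%. The first 50000 lines gave 29.4% for KCl at 30 min in place of 39.2%, and 42.1% for day in place of 69%. The covariate gave 39.7% and 26.1% for FHT1015 without and with KCl in place of 67.6% and 50%. The filter of 50% of libraries tested fewer regions, and for KCl at DIV18 it called 22.7% of them in place of 23%.

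Without single libraries the counts ranged from 43 to 52 for KCl at 10 min, 158 to 190 at 30 min, 122 to 162 with FHT1015, 352 to 368 and 262 to 289 for FHT1015 without and with KCl, 98 to 125 for the interaction, 2 to 3 for KCl in non-targeting DIV7 neurons, 1 to 2 for Arid2, 86 to 161 for KCl at DIV18, 96 to 151 for Smarcc2 knockout, 55 to 83 for its add-back, 0 for S586A, 0 to 2 for S586E, 0 for knockout by KCl and 441 to 479 for day.

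Groups share replicate numbers, but with 2 numbers per group the deviations of same-numbered libraries correlated only at -0.0917 to 0.112 (inhibitor libraries), 0.0001 to 0.0207 (Arid2 libraries) and 0.0371 to 0.194 (DIV18 libraries), so the numbers were not taken to pair them. With a replicate block the counts were 125, 250 and 189 for KCl at 10 min, 30 min and with FHT1015, 380 and 303 for FHT1015, 141 for the interaction, 4 for KCl in non-targeting DIV7 neurons, 1 for Arid2, 252 for KCl at DIV18, 186 for Smarcc2 knockout, 145 for its add-back and 493 for day. Of all regions, the block called 26.9% for KCl at DIV18 in place of 23%. For Smarcc2 knockout it called 23% in place of 19.4%, and for the add-back 19.2% in place of 15.3%.

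Single regions changed sign, and the cause was not tested. With the interval as unit, for KCl at 10 min Kcnn3 went to -0.17 and Kcnab3 to -0.048. At 30 min Kcnk12 went to 0.26, Kcnab3 to -0.14 and Kcnn4 to -0.58. With FHT1015 Kcnk7 went to -0.19 and Kcnab3 to -0.10. For FHT1015 without KCl Kcnj10 went to -0.14, and with KCl Kcnip3 to -0.33 and Kcnk12 to 0.0877. For the interaction Kcnk12 went to -0.22, Kcnh3 to -0.97, Kcna3 to 0.12 and Kcnab3 to 0.0331. At DIV18 Kcnk4 went to -1.40 and Kcnk7 to -0.86. With a 500 bp window Kcnj12 went to -0.59 at 10 min, Kcnk12 to 0.23 at 30 min, Kcna3 to 0.0887 and Kcnk7 to -0.19 with FHT1015, Kcnf1 to 0.62 and Kcna7 to -0.22 for FHT1015 with KCl, Kcnk12 to -0.19 and Kcna3 to 0.13 for the interaction, and Kcnc4 to -0.30 and Kcnk4 to -0.0717 at DIV18. With the covariate, the day changes of Kcnh1, Kcnh7 and Kcnab2 went to 0.11, 0.50 and 0.29. In the simulated test with 200 changed regions, changes of 1 unit with KCl were mostly not detectable in non-targeting DIV7 neurons. Far more regions were called in the DIV18 data than the test changed, so it does not carry over there.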
